A study of Mus musculus with 25 samples.

Results

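The comparison set hippocampal gene expression in mice with 1 disrupted copy of Scn1a (Scn1a+/-) against wild-type mice at postnatal day 14 (P14), an age at which every pool is labelled as free of seizures. Its members were chosen by title, age and genotype, and are 11 of the 25 samples of the series. Each sample was 1 RNA sequencing library made from the pooled hippocampi of 12 to 16 mice. There were 3 Scn1a+/- and 3 wild-type pools of the [129S6/SvEvTac x C57BL/6]F1 hybrid (here F1), and 3 Scn1a+/- and 2 wild-type pools of the inbred line 129S6/SvEvTac (here 129S6). The labels give no treatment and no sex, and they do not say which part of Scn1a the mutant allele lacks. The question was how far loss of 1 copy of Scn1a alters hippocampal RNA before seizures begin, and whether the strain prone to seizures and the strain resistant to them answer alike.

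Scn1a encodes Nav1.1, a voltage-gated sodium channel that carries much of the sodium current of inhibitory interneurons, and parvalbumin interneurons rely on it for fast firing. Loss of 1 copy causes Dravet syndrome, a childhood epilepsy in which seizures begin after a period of outwardly normal development. In mice the outcome depends on background: F1 mice develop spontaneous seizures and often die young, whereas 129S6 mice are largely spared. P14 lies before that divergence.

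Library totals ran from 7436442 to 21637211 counts assigned to genes, and the shallowest library was F1 Scn1a+/- replicate 2. In F1 the Scn1a+/- libraries held 7436442 to 11249953 counts and the wild-type libraries 11877868 to 14912198. Depth thus runs with genotype in F1, and the 2 cannot be told apart there. In 129S6 the totals of the genotypes overlap. Of 24421 genes counted, 15319 had enough counts to be tested. Markers of the hippocampal fields were present in every library, with summed levels of 1238 to 1350 CPM (counts scaled to the size of the library) for 20 dentate granule cell markers and 1311 to 1553 CPM for 15 CA1 markers. The first principal component, 23.0% of the variance, separated the strains, while no genotype split showed on the first 3 components. F1 Scn1a+/- replicate 2 stood apart on the second component and 129S6 Scn1a+/- replicate 1 on the third. Because the replicates are pools, p-values measure the spread between pools and not between mice. Nothing in the labels says whether the pools of a group came from separate litters or days.

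Scn1a itself, the check on the genotype labels, was lower in Scn1a+/- pools of both strains, by a small margin. It lies on chromosome 2 (chr2:66270781-66440837, mm10). In F1 it stood at 91.2, 93.2 and 91.3 CPM in the Scn1a+/- pools, against 106, 103 and 102 CPM in the wild-type pools. In 129S6 it had 93.0, 103 and 101 CPM in Scn1a+/- pools, against 116 and 108 CPM in wild type. Within each strain every Scn1a+/- pool was below every wild-type pool.

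The fitted log2 fold change of Scn1a over both strains, with strain as a covariate, was -0.18 ± 0.04 (approximate standard error), a level 11.6% below wild type. The estimates of the strains were alike, at -0.18 ± 0.06 in F1 and -0.18 ± 0.06 in 129S6. The difference between the strains was 0.00, with a 95% interval of -0.17 to 0.17. That interval is wide beside the effect, so equal size in the strains is not shown. Rearranging the genotype labels within each strain in all 200 possible ways gave a two-sided exact permutation p of 0.005, the smallest this design allows. Across all 15319 genes Scn1a ranked 9th by p and did not pass, with an adjusted p of 0.145 by edgeR's quasi-likelihood test with Benjamini-Hochberg adjustment. A count over the whole gene cannot separate transcripts of the intact and the mutant allele.

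**Figure D1:**
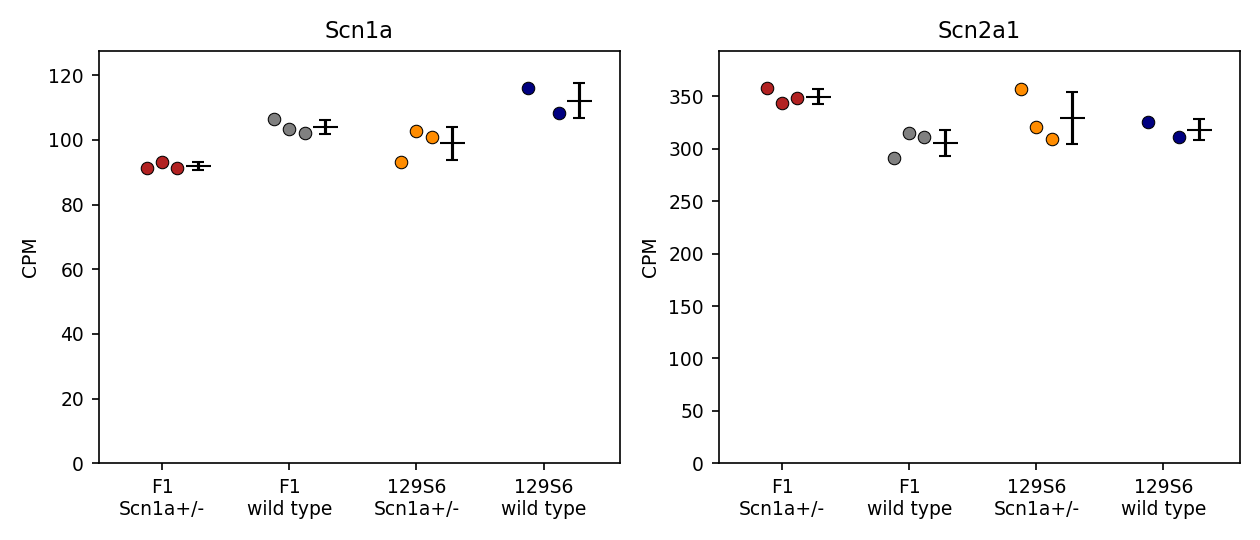
Level of Scn1a (left) and of Scn2a1, its neighbour on the chromosome (right), in CPM on the vertical axis, for each P14 pool by strain and genotype; points are pools and bars the mean ± SD. All Scn1a+/- pools lie below the wild-type pools of their strain for Scn1a, with 91.2 to 93.2 against 102 to 106 CPM in F1, and for Scn2a1 the pools are apart in F1 and overlap in 129S6.

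Genes around Scn1a were examined next, since other sodium channel genes adjoin it. Scn2a1, which encodes Nav1.2, the channel of excitatory axons, had 358, 343 and 348 CPM in F1 Scn1a+/- pools, against 292, 315 and 311 CPM in F1 wild type. Levels in 129S6 were 357, 321 and 309 CPM in Scn1a+/- pools, against 325 and 311 CPM in wild type. The F1 groups did not overlap and the 129S6 groups did. Its log2 fold change was 0.19 in F1 and 0.05 in 129S6, and the value over both strains, 0.13 ± 0.04, did not pass (edgeR adjusted p = 0.37). Grb14, a growth factor receptor adaptor on the same chromosome, had -0.16 ± 0.07 (edgeR adjusted p = 0.611). Of 15 neighbouring genes tested, 0 passed.

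Over both strains 2 genes passed the threshold, an adjusted p under 0.05. Both had a lower fitted level in Scn1a+/- libraries, though the groups overlap in each strain. They were Gabra6 and Fat2, 0.0131% of the genes tested. Gabra6 encodes the alpha6 subunit of the GABA-A receptor and Fat2 a protocadherin, and both are known as genes of cerebellar granule cells. At an unadjusted p under 0.05 there were 1079 genes, or 7.04%, where 766 would be expected if no gene differed. Of these, 604 were higher and 475 lower in Scn1a+/- libraries, 3.94% and 3.1% of all genes.

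Gabra6 (chr11:42306437-42321072, mm10) had 0, 0.271 and 0.187 CPM in F1 Scn1a+/- pools, against 0.252, 1.81 and 0.152 CPM in F1 wild type. The 129S6 Scn1a+/- pools had 0.189, 0 and 0.229 CPM, against 0 and 8.88 CPM in wild type. The fitted log2 fold change was -4.16 ± 0.70 (edgeR adjusted p = 0.00378), yet the groups overlap in both strains. The highest levels were in wild-type replicate 2 of 129S6, which held 139 counts, and wild-type replicate 2 of F1, which held 27 counts, while the other 9 libraries held 0 to 5 counts. Its promoter, 250 bases before to 50 after the start in RefSeq on GRCm38.p6 (chr11:42321023-42321322, minus strand), is printed because this gene had the smallest p of the comparison. Nuclear factor I proteins are known to act on it in maturing cerebellar granule cells, and the capitals mark the half-site they bind, TTGGC, here read on the opposite strand as GCCAA, with its first base 49 bases before the start.
Gabra6: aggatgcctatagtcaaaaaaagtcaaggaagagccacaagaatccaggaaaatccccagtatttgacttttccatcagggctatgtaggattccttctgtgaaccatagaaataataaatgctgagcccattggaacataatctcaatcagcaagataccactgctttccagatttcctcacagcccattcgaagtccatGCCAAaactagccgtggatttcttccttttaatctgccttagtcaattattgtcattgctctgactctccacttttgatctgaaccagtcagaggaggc
This half-site, searched on both strands, occurs in 46.7% of the 32851 promoters of the same table, so its presence is a description only.

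Fat2 (chr11:55250609-55337505) had the same pattern of pools. It stood at 0.803, 0.541 and 1.03 CPM in F1 Scn1a+/- pools, against 2.01, 3.75 and 0.533 CPM in F1 wild type. Among 129S6 pools it was at 1.41, 0.879 and 1.06 CPM in Scn1a+/-, against 0.571 and 14.8 CPM in wild type. Its log2 fold change was -2.30 ± 0.42 (edgeR adjusted p = 0.0087), and the groups overlap in both strains.

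Cbln3 (chr14:55878920-55884256), a cerebellin secreted by cerebellar granule cells, came next by p. It had 1.25, 1.76 and 0.56 CPM in F1 Scn1a+/- pools, against 0.923, 3.01 and 1.45 CPM in F1 wild type. In 129S6 it had 0.848, 0.559 and 0.963 CPM in Scn1a+/- pools, against 0.698 and 10.2 CPM in wild type. The same wild-type pool of 129S6 was again the highest. Over both strains Cbln3 did not pass (-1.86 ± 0.40, edgeR adjusted p = 0.108), and in the 129S6 contrast of the fit on all 11 libraries it did, together with Gabra6 and Fat2. Fitted on the 129S6 libraries alone, 0 genes passed.

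**Figure D2:**
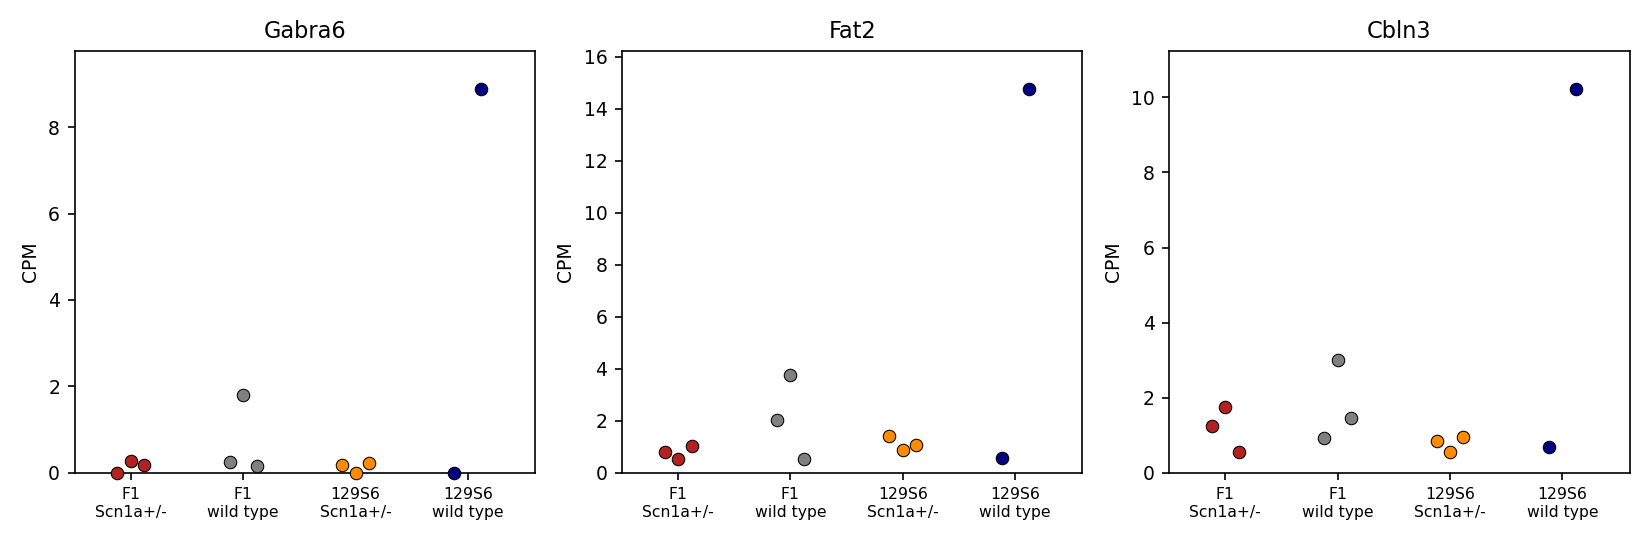
Levels of Gabra6, Fat2 and Cbln3 in CPM (vertical axes) in each P14 pool by strain and genotype; each point is 1 pool. In each panel 1 wild-type pool of 129S6 stands at 8.88, 14.8 and 10.2 CPM, 1 wild-type pool of F1 is next, and the remaining pools of both genotypes lie together near the axis.

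A list of 14 genes of cerebellar granule cells, put together after these values were seen, was mixed. All 14 were tested, 10 were lower and 4 higher in Scn1a+/- libraries (median -0.24), and the 2 called genes were the members that passed. Wild-type replicate 2 of 129S6 was the highest of the 11 libraries for 9 of the 14. The 4 higher members were Pax6, Neurod1, Zic2 and Etv1, with log2 fold changes of 0.02, 0.03, 0.01 and 0.09. Cdh15 and Kcnk9 were lower in that wild-type replicate, at 3.00 and 14.0 CPM, than in wild-type replicate 1 of 129S6, at 3.55 and 19.9 CPM. En2, a transcription factor of the cerebellum and midbrain, had 0.446, 0.677 and 0.28 CPM in F1 Scn1a+/- pools, against 0.839, 1.00 and 0.837 CPM in F1 wild type. Levels in 129S6 were 1.13, 0.479 and 0.917 CPM in Scn1a+/- pools, against 1.02 and 3.07 CPM in wild type, again with replicate 2 of the wild type highest (log2 fold change -1.17 ± 0.34, edgeR adjusted p = 0.378). Summed over the list, levels were 274 to 306 CPM in F1 Scn1a+/- and 294 to 333 CPM in F1 wild-type pools, and 308 to 319 CPM in 129S6 Scn1a+/- and 299 to 365 CPM in 129S6 wild-type pools. Most of that sum came from members that the hippocampus also expresses, such as Grin2c and Neurod1. Of 7 Purkinje cell genes tested, a list also made after values were seen, 0 passed. Members such as Calb1 (128 to 141 CPM) and Itpr1 (213 to 254 CPM) were high in every pool. This count therefore cannot show whether Purkinje cell RNA differed.

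Without wild-type replicate 2 of 129S6, 0 genes passed over both strains, and Gabra6 stood at -1.37 (edgeR adjusted p = 0.749) and Fat2 at -0.65 (0.769). Without replicate 2 of wild type in both strains, a setting chosen after these values were seen, Fat2 stood at -0.02 and Cbln3 at 0.04. The same 3 genes were also uneven among the P24 pools, with 29, 38 and 56 counts of Gabra6, Fat2 and Cbln3 in replicate 2 labelled 129S6 Scn1a+/-, and 87, 96 and 127 counts in replicate 1 labelled 129S6 wild type. In bulk tissue, the number of cells of a type and the RNA per cell cannot be told apart. Whether the pools differed in the tissue they held was not tested.

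The genes that followed differed little in size. Of the 10 genes with the smallest p and a higher level in Scn1a+/- libraries, 8 had a log2 fold change under 0.3, and none passed. The smallest p was that of App, which encodes the amyloid precursor protein. App had 931, 919 and 855 CPM in F1 Scn1a+/- pools, against 764, 781 and 858 CPM in F1 wild type. The 129S6 Scn1a+/- pools had 993, 837 and 788 CPM, against 790 and 743 CPM in wild type. The groups overlap by 1 pool in each strain, and the log2 fold change was 0.18 ± 0.04 (edgeR adjusted p = 0.115).

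Mia3, which encodes TANGO1, a protein that loads bulky cargo for export from the endoplasmic reticulum, was cleanly apart. It had 114, 112 and 108 CPM in F1 Scn1a+/- pools, against 95.03, 98.9 and 99.9 CPM in F1 wild type. Among 129S6 pools it was at 112, 105 and 105 CPM in Scn1a+/-, against 97.6 and 92.7 CPM in wild type. All 6 Scn1a+/- pools were above all 5 wild-type pools (log2 fold change 0.18 ± 0.04, edgeR adjusted p = 0.115).

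Atp2b1, a calcium pump of the plasma membrane, had 0.15 ± 0.03 on the log2 scale and did not overlap within either strain. Pcdhga4, a gamma protocadherin, had 0.61 ± 0.14, from levels of 4.37 to 9.51 CPM, but it shares its last exons with the other gamma protocadherins, so that its counts are uncertain. Prepl, a serine peptidase-like protein, had 0.16 ± 0.04, and Asns, asparagine synthetase, 0.23 ± 0.06. Ankrd55 had 0.65 ± 0.16 and Cpne8, a calcium-binding copine, 0.29 ± 0.07, and neither overlapped over all 11 libraries. Nov, a matricellular protein, had 0.16 ± 0.04. The edgeR adjusted p of these 7 genes and of Fstl5 ran from 0.115 to 0.196.

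Fstl5, a secreted follistatin-like protein, was apart in F1 and overlapped in 129S6. It had 47.4, 47.2 and 50.7 CPM in F1 Scn1a+/- pools, against 30.4, 36.6 and 39.6 CPM in F1 wild type. In 129S6 it had 60.5, 48.2 and 45.4 CPM in Scn1a+/- pools, against 46.4 and 48.8 CPM in wild type. The F1 log2 fold change of 0.45 had the smallest p in that strain and did not pass (edgeR adjusted p = 0.19), and its difference from the 129S6 value of 0.09 did not pass either (unadjusted p = 0.01, and the smallest edgeR adjusted p of any gene in that test was 0.93).

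Beside the cerebellar genes and Scn1a, the genes with the smallest p and a lower level were Malat1, Camk2n1, Cox7a2, Arhgef1, Fam107a and Mt1. Malat1, an abundant nuclear RNA that is not translated, had 892, 936 and 896 CPM in F1 Scn1a+/- pools, against 874, 955 and 1192 CPM in F1 wild type. Levels in 129S6 were 995, 994 and 1098 CPM in Scn1a+/- pools, against 1313 and 1142 CPM in wild type. The groups overlap in F1 and not in 129S6 (log2 fold change -0.20 ± 0.04, edgeR adjusted p = 0.115).

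Camk2n1, an inhibitor of the synaptic kinase CaMKII, had 568, 656 and 610 CPM in F1 Scn1a+/- pools, against 684, 625 and 634 CPM in F1 wild type. The 129S6 Scn1a+/- pools had 576, 598 and 576 CPM, against 750 and 636 CPM in wild type. Its log2 fold change was -0.08 in F1 and -0.25 in 129S6, and over both strains -0.16 ± 0.04 (edgeR adjusted p = 0.163). Cox7a2, a subunit of cytochrome c oxidase, had -0.17 ± 0.04, and Mt1, a metal-binding metallothionein, -0.14 ± 0.04. Arhgef1, an activator of the GTPase RhoA, had -0.20 ± 0.05 and was lower in all 6 Scn1a+/- than in all 5 wild-type pools. Fam107a, a stress-induced actin regulator, had -0.13 ± 0.03 and was apart within each strain. None of these passed, with adjusted p of 0.163 to 0.224.

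**Figure D3:**
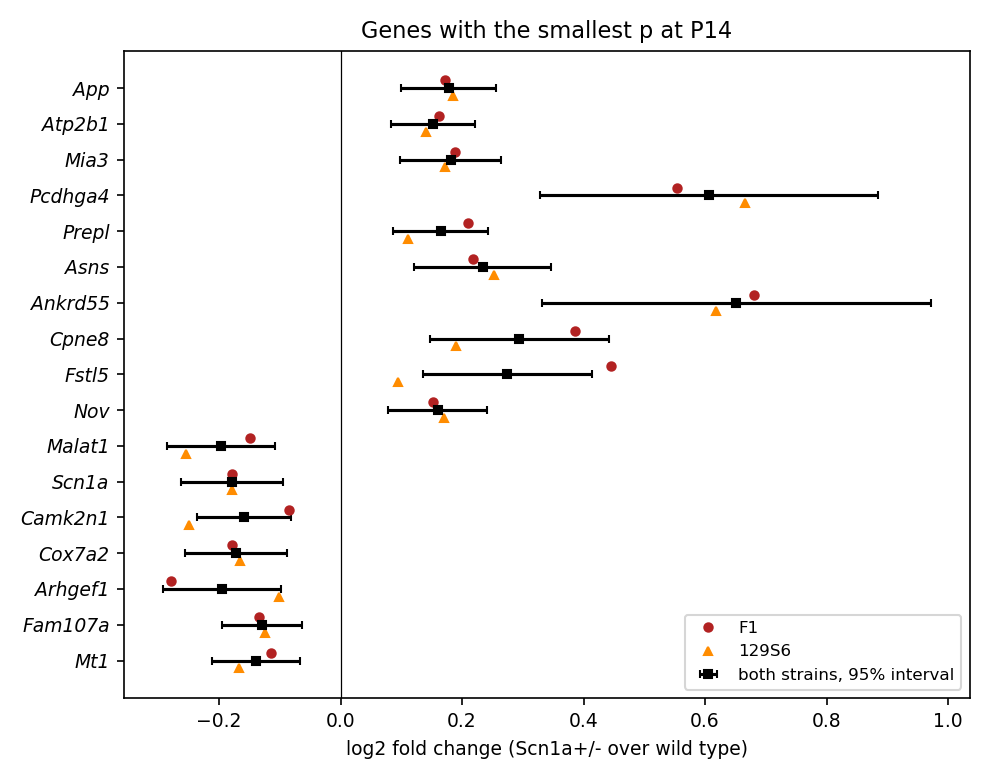
Log2 fold change of Scn1a+/- over wild type (horizontal axis) for the genes with the smallest p in each direction, without the 3 cerebellar genes; squares are the estimate over both strains with its 95% interval, circles F1 and triangles 129S6. Fitted over both strains, 8 of the 10 higher genes lie under 0.3, with Pcdhga4 at 0.61 and Ankrd55 at 0.65 beyond, and the 7 lower genes lie between -0.20 and -0.13.

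The strains were then set against each other, with no library in common. Each strain's contrast was taken from 1 fit on all 11 libraries, which share an estimate of the spread. In the F1 contrast 0 genes passed (0%), with 1190 at an unadjusted p under 0.05 (7.77%). DESeq2 also called 0 there, and a fit on the F1 libraries alone called 1. In the 129S6 contrast 3 genes passed (0.0196%), the cerebellar genes above, with 627 at an unadjusted p under 0.05 (4.09%). DESeq2 called 0 there, as did a fit on the 129S6 libraries alone. In a direct test of the F1 effect minus the 129S6 effect by edgeR 0 genes passed (0%), with 710 at an unadjusted p under 0.05 (4.63%), fewer than the 766 expected if no gene differed, and DESeq2 again called 0.

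Gene by gene, the fitted effects in the strains were almost uncorrelated. Their median standard error was 0.10 in F1 and 0.11 in 129S6, and a correlation near 0 among small effects does not show that the strains differ. Across 15319 genes the correlation of the log2 fold changes was 0.05 (Pearson) and 0.04 (Spearman), as a description, since genes of 1 library are not independent. The sign was the same for 51.8% of genes. Among the 1190 genes at an unadjusted p under 0.05 in F1 it was the same for 58.9%, and among the 627 in 129S6 for 59.2%. Among the 9158 genes whose mean log2 CPM reached 4 the Pearson correlation was 0.07 and the sign was the same for 52.7%. An unadjusted p under 0.05 in both strains was reached by 63 genes (0.411% of all), and 43 of the 63 had the same sign. They are 5.29% of the F1 genes at that level, where 4.09% of all genes reached it in 129S6. They are also 10.0% of the 129S6 genes at that level, where 7.77% of all genes reached it in F1.

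Complete separation of the pools was common, as groups this small allow. The Scn1a+/- and wild-type libraries did not overlap for 12.9% of genes in F1 and for 19% in 129S6. Wild type had 3 pools in F1 and 2 in 129S6, and fewer pools separate more readily by chance. The shares of the strains are thus not comparable, and these counts are a description only. For 218 genes (1.42%), Scn1a among them, the libraries were apart in both strains in the same direction, 112 higher and 106 lower. For 156 genes (1.02%) they were apart in opposite directions. Over all 11 libraries 75 genes (0.49%) did not overlap, 32 higher and 43 lower. Scn1a was not one of these 75, since its highest Scn1a+/- value, 102.7 CPM in 129S6, exceeded its lowest wild-type value, 102.0 CPM in F1.

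**Figure D4:**
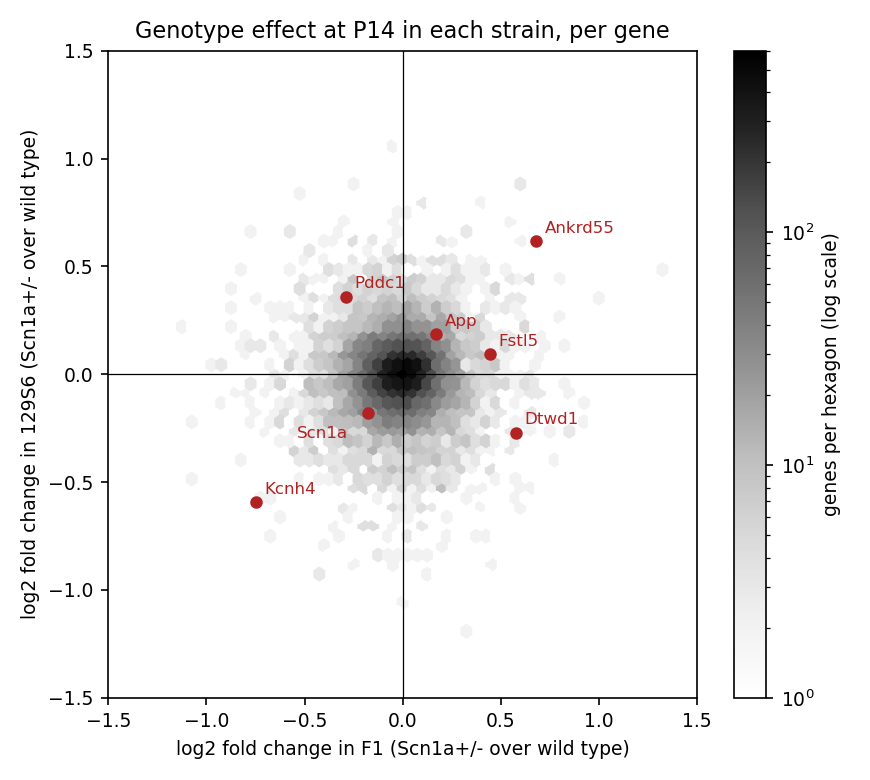
Log2 fold change of Scn1a+/- over wild type in F1 (horizontal axis) against that in 129S6 (vertical axis), as a density of genes (darker hexagons hold more, log scale), with some named genes as red points; 31 of 15319 genes lie outside the window of -1.5 to 1.5. The cloud is round (Pearson 0.05), Scn1a sits at -0.18 on both axes, and Pddc1 and Dtwd1 lie in opposite quadrants.

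By the naming rule given below, the genes with the smallest p for a difference between strains were Pddc1, Zfand2b, P3h3, Dtwd1 and Ubxn7. Each was apart in both strains in opposite directions, as were 156 genes (1.02%) in all, and choice by this p favours that pattern. Pddc1, which encodes a glutamine amidotransferase-like protein, had 21.5, 23.4 and 22.2 CPM in F1 Scn1a+/- pools, against 25.4, 30.0 and 26.0 CPM in F1 wild type. Among 129S6 pools it was at 26.5, 35.9 and 26.7 CPM in Scn1a+/-, against 22.2 and 23.8 CPM in wild type. The difference of the effects was -0.65 on the log2 scale. For Zfand2b, a zinc finger protein of the proteasome system, it was 0.66, for P3h3, a prolyl hydroxylase of collagen, -0.53, for Dtwd1 0.85 and for Ubxn7, an adaptor of the segregase p97, 0.33. None of the 5 passed (edgeR adjusted p = 0.93 or above).

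Gene groups tied to Scn1a and to excitability were described by count, beside all tested genes, whose median log2 fold change was 0.00 with 49.7% higher. At an unadjusted p under 0.05, 3.94% of all genes were higher and 3.1% lower. None of the 33 lists held a called gene, and Gabra6 and Fat2 belong to none of them. Of 15 sodium channel genes tested, 11 were higher and 4 lower in Scn1a+/- libraries (median 0.06), with Scn1a and Scn2a1 the members of smallest p. Of 53 potassium and HCN channel genes, 29 were higher and 24 lower (median 0.01).

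Among potassium channels the largest difference was in Kcnh4, a channel of the ether-a-go-go family. It had 1.87, 2.03 and 3.27 CPM in F1 Scn1a+/- pools, against 4.03, 3.82 and 4.34 CPM in F1 wild type. In 129S6 it had 1.89, 2.72 and 2.06 CPM in Scn1a+/- pools, against 3.81 and 2.87 CPM in wild type. The groups were apart in each strain, at a low level, and the log2 fold change of -0.67 ± 0.19 did not pass (edgeR adjusted p = 0.331). Dpp6, an auxiliary subunit of A-type potassium channels, had 0.10 ± 0.04 (0.58). Of 22 calcium channel genes, 12 were higher (median 0.01), and Cacnb3, a beta subunit, was lower in all Scn1a+/- pools than in any wild-type pool, at 241 to 256 against 257 to 275 CPM (-0.09 ± 0.03, edgeR adjusted p = 0.542).

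The list of GABA receptors, synthesis and transport does not hold Gabra6, the 1 GABA receptor subunit gene called. Levels of Gabra6 were highest in wild-type replicate 2 of each strain, and its groups overlap in both strains. Of the 24 genes of the list tested, 19 were higher and 5 lower in Scn1a+/- libraries (median 0.04). Of the higher ones, 6 reached an unadjusted p under 0.05, where 3.94% of all genes were higher at that level. Gabbr2, a subunit of the metabotropic GABA-B receptor, had 214, 229 and 209 CPM in F1 Scn1a+/- pools, against 206, 195 and 206 CPM in F1 wild type. Levels in 129S6 were 237, 213 and 192 CPM in Scn1a+/- pools, against 202 and 181 CPM in wild type, with overlap in 129S6 (0.13 ± 0.04, edgeR adjusted p = 0.45). Gphn, the scaffold gephyrin of inhibitory synapses, had 0.12 ± 0.05 (0.58).

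Of 38 interneuron markers, 26 were higher (median 0.02; 0.05 in F1 and 0.00 in 129S6). Gad1, which makes GABA, had 0.10 ± 0.04 (edgeR adjusted p = 0.634), and Cnr1, the cannabinoid receptor of cholecystokinin interneurons, 0.10 ± 0.04 (0.55). Pvalb, Sst and Vip, which mark the main interneuron classes and are named here after their values were seen, had -0.10 ± 0.07, 0.10 ± 0.05 and 0.14 ± 0.08. Pvalb, the parvalbumin gene, had 22.8, 25.2 and 26.1 CPM in F1 Scn1a+/- pools, against 24.1, 25.8 and 25.9 CPM in F1 wild type. The 129S6 Scn1a+/- pools had 25.5, 22.7 and 25.9 CPM, against 25.9 and 29.6 CPM in wild type. The F1 groups overlap for Pvalb, and in 129S6 the groups meet at 25.9 CPM (edgeR adjusted p = 0.847).

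Of 25 glutamate receptor genes, 15 were higher (median 0.04). An unadjusted p under 0.05 was reached by 7 higher and 1 lower, against 3.94% and 3.1% of all genes. Gria1, an AMPA receptor subunit, had 0.10 ± 0.03 (edgeR adjusted p = 0.481), and Grin2a, an NMDA receptor subunit that increases as synapses mature, 0.18 ± 0.06 (0.492). Of 41 immediate early genes, which neuronal firing induces within minutes, 19 were higher and 22 lower (median -0.02), with Plk2 at 0.11 ± 0.04 (0.492) and Rgs2 at 0.17 ± 0.06 (0.509). Fos and Arc, named as the best known of them after their values were seen, had -0.11 ± 0.12 and -0.09 ± 0.05 (edgeR adjusted p = 0.906 and 0.747).

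Neuropeptides and late genes of neuronal activity were the list with the largest share of members in 1 direction. Of 28 tested, 25 were higher in Scn1a+/- libraries (median 0.10, with 0.07 in F1 and 0.11 in 129S6). Of those 25, 7 reached an unadjusted p under 0.05, where 3.94% of all genes were higher at that level. Scg2, a secretogranin of dense-core vesicles, had 177, 155 and 169 CPM in F1 Scn1a+/- pools, against 132, 148 and 155 CPM in F1 wild type. Among 129S6 pools it was at 172, 167 and 138 CPM in Scn1a+/-, against 146 and 141 CPM in wild type. The F1 groups were narrowly apart, the 129S6 groups overlap by 1 pool, and the log2 fold change was 0.18 ± 0.05 (edgeR adjusted p = 0.239).

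Trh, the precursor of thyrotropin-releasing hormone, had 0.471, 2.00 and 0.963 CPM in 129S6 Scn1a+/- pools, against 0 and 0.128 CPM in 129S6 wild type. In F1 it had 0.624, 0.406 and 0.467 CPM in Scn1a+/- pools, against 0.336, 0.335 and 0.609 CPM in wild type. It was apart in 129S6 and overlapped in F1, at levels of at most 2.00 CPM, and did not pass over both strains (edgeR adjusted p = 0.439). Hypothalamic and amygdalar markers were also mostly higher in Scn1a+/- libraries. Of 12 tested, 10 were higher (median 0.17; 0.04 in F1 and 0.18 in 129S6), the highest median of any list, and they share 3 genes with the neuropeptide list, Trh, Gal and Cartpt. They summed to 56.8 to 92.3 CPM in 129S6 Scn1a+/- pools, against 56.7 to 59.9 CPM in 129S6 wild type, and to 47.1 to 54.8 CPM in F1 Scn1a+/- pools, against 43.0 to 54.9 CPM in F1 wild type. Their part in the neuropeptide values was not tested.

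Of the 5 glial lists, astrocyte and microglia markers were mostly lower in Scn1a+/- libraries, and the strains had the same sign for 10 of 20 and 10 of 24 of them. Of 20 astrocyte markers 15 were lower (median -0.05), with the gap junction gene Gjb6 at -0.14 ± 0.05 (edgeR adjusted p = 0.463) and Aldh1l1 at -0.14 ± 0.05 (0.56). Of 26 reactive astrocyte genes 14 were lower (median -0.02). Of 24 microglia markers 20 were lower (median -0.02), with Sall1, a transcription factor of microglial identity, lower in all 6 Scn1a+/- than in all 5 wild-type pools (-0.18 ± 0.06, 0.492). Of 15 interferon-stimulated genes 13 were lower (median -0.11), with Ifi44 at -1.25 ± 0.43 (0.492), at levels of at most 1.40 CPM. Myelin genes, at 14 of 26 higher (median 0.01), and oligodendrocyte precursor genes, at 7 of 14 higher (median 0.00), were evenly split.

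Genes of energy supply and translation leaned lower, with medians further from 0 in 129S6. Of 61 oxidative phosphorylation genes, 45 were lower (median -0.04, with -0.01 in F1 and -0.08 in 129S6). Of those 45, 12 reached an unadjusted p under 0.05, where 3.1% of all genes were lower at that level. Cox6a1, a subunit of cytochrome c oxidase, had 373, 422 and 384 CPM in F1 Scn1a+/- pools, against 447, 434 and 420 CPM in F1 wild type. In 129S6 it had 372, 375 and 364 CPM in Scn1a+/- pools, against 392 and 394 CPM in wild type (-0.12 ± 0.03, edgeR adjusted p = 0.331). The 129S6 groups were apart and the F1 groups overlapped by 1 pool. Summed over the list, levels were 10017 to 10248 CPM in 129S6 Scn1a+/- and 10526 to 10584 CPM in 129S6 wild-type pools, and 10489 to 10725 CPM in F1 Scn1a+/- and 10396 to 10839 CPM in F1 wild-type pools.

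Of 54 cytosolic ribosomal protein genes, 44 were lower and 0 reached an unadjusted p under 0.05 (median -0.06), and counts of this family can be split among pseudogenes. Of 24 glucocorticoid-responsive genes, 19 were lower (median -0.06, with -0.02 in F1 and -0.13 in 129S6). Of those 19, 7 reached an unadjusted p under 0.05, where 3.1% of all genes were lower at that level. Mt1 and its relative Mt2 (-0.14 ± 0.04, edgeR adjusted p = 0.434) were the members of smallest p. Of 27 heat shock and unfolded protein genes, 17 were higher, with the chaperone Hsp90aa1 at 0.24 in F1 and 0.04 in 129S6. The difference between strains was tested gene by gene and not for a list.

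Markers of the hippocampal fields and of tissue around the hippocampus were read alike. Of 15 CA1 markers 10 were higher (median 0.04), 4 at an unadjusted p under 0.05, where 3.94% of all genes were higher at that level. Of 20 CA2 and CA3 markers 13 were higher (median 0.02), and 4 of these also reached an unadjusted p under 0.05. Neurod6, a transcription factor of pyramidal neurons, was higher in all 6 Scn1a+/- than in all 5 wild-type pools, at 220 to 247 against 206 to 219 CPM (0.12 ± 0.04, edgeR adjusted p = 0.378). Of 20 dentate granule cell markers 9 were higher (median 0.00). Choroid plexus and ependymal markers summed to 846 to 1269 CPM in F1 Scn1a+/- and 1031 to 1239 CPM in F1 wild-type pools, and to 1353 to 1947 CPM in 129S6 Scn1a+/- and 1406 to 1606 CPM in 129S6 wild-type pools, with overlap in each strain. Neocortical, striatal and thalamic markers had medians of -0.03, 0.00 and -0.03.

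The remaining lists held no called gene. Of 16 leptomeningeal markers 6 were higher (median -0.02), of 20 endothelial and pericyte markers 8 (-0.02), of 26 neurogenesis and cell cycle genes 16 (0.01), of 15 candidate Dravet modifier genes 10 (0.03) and of 3 blood cell genes 1 (-0.07). The sex makeup of the pools is not labelled. Xist, made from the inactive X chromosome, had 1054 to 1184 CPM in F1 Scn1a+/- pools, against 1106 to 1449 CPM in F1 wild type. Levels in 129S6 were 1128 to 1299 CPM in Scn1a+/- pools, against 1190 to 1354 CPM in wild type. The Y-linked gene Ddx3y had 38.2 to 50.1 CPM in Scn1a+/- pools against 39.0 to 49.6 CPM in wild-type pools. Both transcripts were present in every pool, and neither gene passed (edgeR adjusted p = 0.492 and 0.918).

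**Figure D5:**
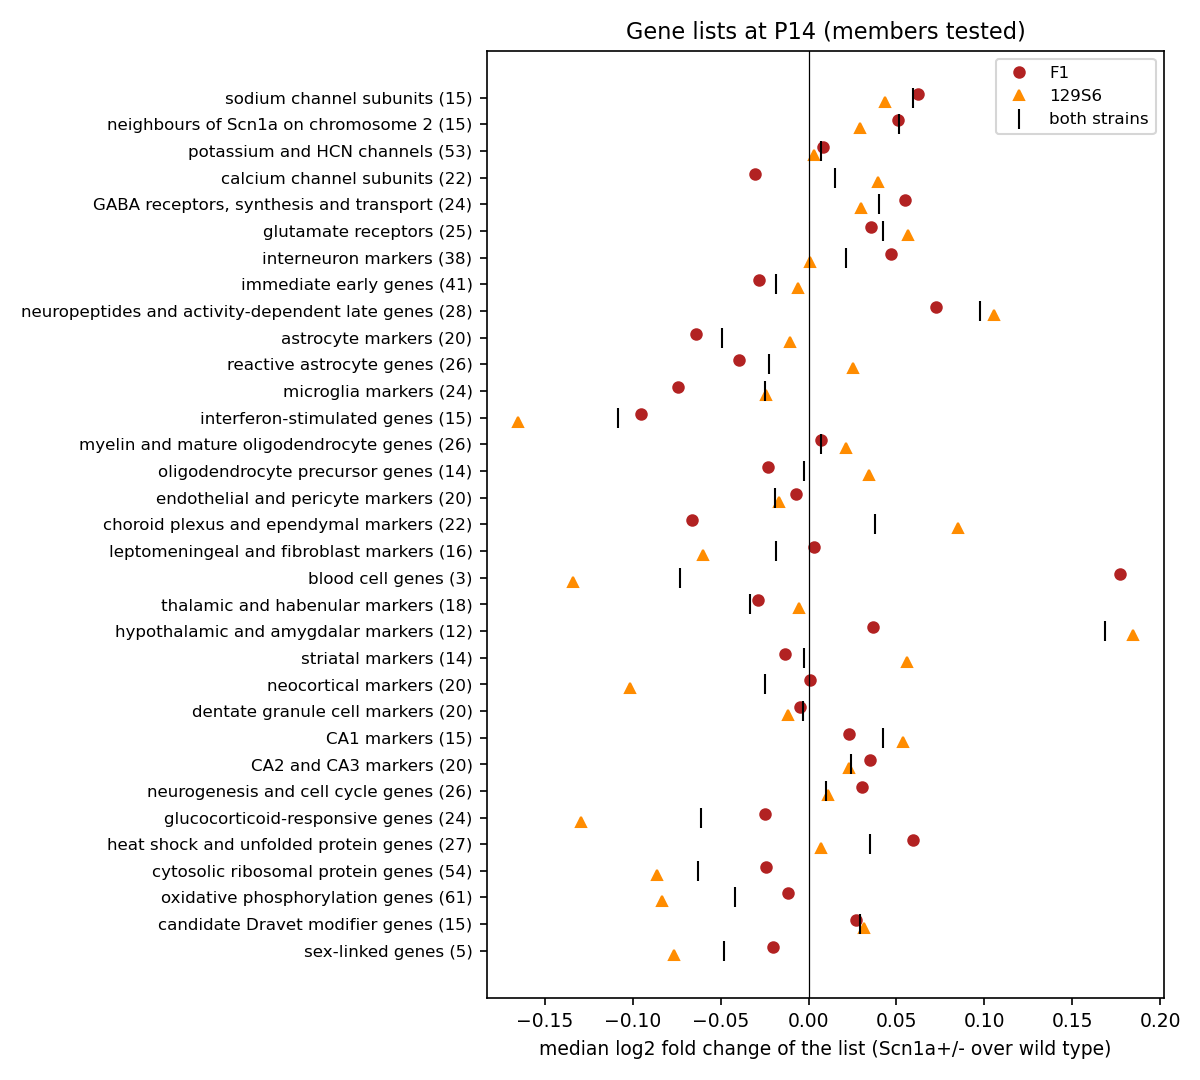
Median log2 fold change of Scn1a+/- over wild type (horizontal axis) for each of the 33 gene lists, with the number of members tested in brackets; circles are F1, triangles 129S6 and bars both strains. Over both strains the neuropeptide list stands at 0.10 and oxidative phosphorylation at -0.04, with its triangle at -0.08 and its circle at -0.01; lists of few members, such as blood cell genes (3), scatter most.

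The precision of the comparison can be read from its intervals. The 95% interval of the log2 fold change over both strains lay within 1.5-fold in either direction for 13060 of 15319 genes (85.3%). That held for all 9158 genes whose mean log2 CPM reached 4 and for 3902 of the 6161 below (63.3%). The median standard error was 0.07, and 90% of the genes, between the 5th and 95th percentiles, had log2 fold changes from -0.23 to 0.20.

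Pools at P24 gave other animals in which to read the same genes. They were fitted separately, with edgeR on the 22 libraries of both ages outside the seizure group. Signs were compared with the P14 estimate over both strains. Of the 19 genes with the smallest p beside Scn1a, 6 had the same sign in seizure-free F1 at P24 (31.6%, against 45.4% of all genes). App had 883 and 672 CPM in the F1 Scn1a+/- pools at P24, against 1145, 931 and 884 CPM in wild type, which differed by -0.35 ± 0.08 on the log2 scale (edgeR adjusted p = 0.0295). Cox7a2 had 194 and 190 CPM in those Scn1a+/- pools, against 148, 157 and 155 CPM in wild type, a difference of 0.32 ± 0.07 (0.0153). Both went the opposite way to their P14 values. In 129S6 at P24, 18 of the 19 had the same sign (94.7%, against 53.1% of all genes) by the labels, and with the labels turned round 1 of the 19 (5.26%, against 46.9% of all genes). Scn1a goes against the labels there, at 134, 144 and 141 CPM in libraries labelled Scn1a+/- against 110, 109 and 111 CPM in libraries labelled wild type. The names under which those libraries were deposited also give the genotype opposite to their titles, so neither direction is relied on.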

How the data were processed

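Per the submitters' processing notes, the authors used CASAVA, TopHat2 2.1.0, HTSeq 0.6.1p1 and mm10, and deposited raw counts per gene, 1 file per library. RNA came from TRIzol extraction and an unstranded kit, per the labels' protocols. The sources used here give neither annotation nor strand setting, so overlapping and antisense genes cannot be told apart. The deposited counts were not rescaled before testing; the authors' normalized table was not used.

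The 11 P14 libraries were fitted with edgeR 4.0.16 (R 4.3.3): TMM factors, filterByExpr (minimum count 10) and a quasi-likelihood test of genotype with strain as covariate. Contrasts of 4 group coefficients gave each strain and their difference. A call is a Benjamini-Hochberg adjusted p under 0.05. Standard errors are the log2 fold change over the root of F. CPM values, on effective library sizes, and intervals were computed here. Pools varied by 5.16% (common biological coefficient of variation) on 8 residual degrees of freedom, with 42.7 prior ones. Replicates differed beyond sampling noise in every pair (chi-square per degree of freedom 2.42 to 4.20), so none was counted as a duplicate. Only the test of genotype over both strains was checked on simulated counts with known changes.

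Named were the 10 genes with the smallest p in each direction, 5 for the strain difference and 2 members per list. Those by direction and by strain difference were taken from a mean log2 CPM of 0 upwards, leaving out predicted genes, clone symbols and microRNAs. Exceptions are stated. Members, lists and tests were chosen with earlier results of these data known. Alternatives covered scaling, filter, tool, libraries fitted, strain term and leaving out each library. Coordinates and the promoter come from RefSeq on GRCm38.p6, the assembly of mm10, where 14642 of 15319 symbols matched.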

Additional observations from a re-analysis of the deposited data

Results flagged for a closer look

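Among 100 named genes, the 6 Scn1a+/- and the 5 wild-type libraries were searched for 1 library far from the rest (Dixon's test on CPM). Chance alone marks about 1 of 20 groups, but many of these genes were named by p in the same libraries, so that rate is a rough guide only. Of 200 groups, 17 were marked, and library depth and strain differ within these groups, whose part was not tested.

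Among wild-type libraries, 129S6 replicate 2 was marked for 4 cerebellar genes, with Gabra6 at 8.88 CPM (others 0 to 1.81), Fat2 at 14.8 (0.533 to 3.75), Cbln3 at 10.2 (0.698 to 3.01) and En2 at 3.07 (0.837 to 1.02). Gabra6 and Fat2 are the 2 genes called over both strains. With Cbln3 they were named for their small p in these libraries, and En2 came from the list made after those values were seen. These 4 marks are thus in part a result of that choice. F1 wild-type replicate 3 was marked for Dkk3, a Wnt pathway modulator, at 238 CPM (203 to 213).

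Among Scn1a+/- libraries, 129S6 replicate 1 was marked for 5 genes. Fstl5 stood at 60.5 CPM (others 45.4 to 50.7), Cnr1 at 372 (326 to 342), Chgb, a chromogranin, at 380.3 (297 to 323), Tek, an endothelial receptor, at 9.05 (12.9 to 13.6) and Rgs9 at 19.0 (23.9 to 26.5). This library also stood apart on the third principal component, and it is the pool highest for App and Scg2 within 129S6. Replicate 2 of the 129S6 Scn1a+/- libraries was marked for Pddc1 at 35.9 CPM (21.5 to 26.7) and Trh at 2.00 (0.406 to 0.963).

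F1 Scn1a+/- replicate 2, the shallowest library, was marked for Rgs2 at 48.3 CPM (others 42.7 to 44.2), Cox6a1 at 422 (364 to 384) and Car8, a Purkinje cell gene, at 9.34 (18.9 to 24.4). F1 Scn1a+/- replicate 1 was marked for Gjb6 at 72.3 CPM (79.4 to 82.8) and for the oligodendrocyte enzyme Aspa at 4.19 (6.79 to 8.12).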

How the results depend on the processing

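The 2 calls over both strains depended on the setting. They numbered 19 with no low-count filter, 16 by DESeq2, and 0 with all 25 libraries, with the 22 libraries outside the seizure group, with no strain term, with strains weighted equally, with robust empirical Bayes, and with replicate 2 of wild type left out in both strains (the last 2 chosen after seeing the data). Leaving out 1 library gave 0 to 12, with 0 without replicate 2 of 129S6 wild type, of F1 wild type or of 129S6 Scn1a+/-, 4 without F1 Scn1a+/- replicate 2 or F1 wild-type replicate 1 or 3, and 12 without 129S6 Scn1a+/- replicate 3, which added App, Arhgef1, Atp2b1, Fstl5, Malat1, Nov, Pcdhga4, Pja2, Prepl and Scg2. DESeq2 set an adjusted p for 1063 genes only, and for Scn1a, Gabra6 and Fat2 none; it called App, Atp2b1, Prepl, Fam107a, Mt1, Camk2n1 and Cox7a2 among others.

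In F1 the count of 0 became 8 with no filter, 1 with that strain alone and 0 to 16 on leaving out 1 library (16 without F1 Scn1a+/- replicate 2, including the synaptic scaffolds Shank1 and Shank3). In 129S6 the count of 3 became 8 with no filter and 0 by DESeq2, with 25 or 22 libraries, with that strain alone and with robust empirical Bayes, and was 0 to 4 on leaving out 1 library, with 0 without 129S6 Scn1a+/- replicate 2 or 3. Without wild-type replicate 2 of 129S6 the calls there were Camk2n1 and Mef2c, with the lone wild-type library of that strain assumed to vary like the other groups. The strain difference had 3 calls with no filter and 0 to 1 on leaving out 1 library. The cause of these changes was not tested.

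Scn1a was lower over both strains in every setting that gave it an adjusted p, with values of 0.0496 to 1.00, passing with no low-count filter only (-0.18). Its strain difference, near 0, ranged from -0.051 to 0.046 on leaving out 1 library and was 0.041 with both wild-type libraries left out. The correlation of the strains was 0.068 from a mean log2 CPM of 4 upwards and 0.074 (same sign 53.1%) with both left out, and it ranged from 0.018 to 0.057 and the same sign from 49.8% to 53.5% on leaving out 1. Alas2 ranged from -0.14 to 0.037 on leaving out 1 library (0.037 without 129S6 wild-type replicate 1, -0.07 with all), and Cbln3 stood at 0.038 and Ddx3y at 0.0050 with both left out. Depth limits genes under a mean log2 CPM of 4. No paired analysis was possible because the titles number libraries over the whole series.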
